A study of Mus musculus with 4 samples.

Results

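Amino acids cross cell membranes through carriers of the solute carrier (SLC) superfamily, and the genes of 7 of its families, Slc1, Slc3, Slc6, Slc7, Slc36, Slc38 and Slc43, were followed here in the lung cells of mice given bleomycin (BLM) or phosphate-buffered saline (PBS). Members were taken by gene symbol, with earlier results of these data known. They were every measured gene of these families with Slc38a4 left out, 62 of the 30142 genes tested. Among them, Slc7a6os carries the family name only as the neighbour of Slc7a6, and its yeast counterpart serves the nuclear import of RNA polymerase rather than transport. Each array held total RNA of CD45-negative lung cells, that is, lung cells without the leukocyte surface marker CD45, from C57BL/6 mice 10 days after an agent was given into the trachea. In the BLM group (2 arrays) the agent was bleomycin, which breaks DNA and is a common means of injuring the mouse lung so that it scars, and in the PBS group (2 arrays) it was PBS. Both groups shared strain, cell fraction and time, while the labels leave out age, sex and whether an array held RNA of single or pooled mice. The comparison asks how carrier genes differ in the CD45-negative fraction of the lung while fibrosis develops.

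The families divide the work by substrate and by coupling. Slc1 and Slc38 carriers use the sodium gradient, some Slc36 carriers use protons, and many Slc7 proteins exchange 1 amino acid for another. Those Slc7 exchangers are light chains that reach the plasma membrane only when joined to a heavy chain, Slc3a2 or Slc3a1. Slc6 holds carriers of neutral amino acids beside those of neurotransmitters, taurine and creatine. When amino acids run short, cells raise the transcription factor ATF4, which induces carriers, amino acid synthesis enzymes and tRNA synthetases through amino acid response elements in their promoters, and lysosomal carriers report amino acid supply to the growth kinase mTORC1. In lung fibrosis such supply is discussed because collagen is rich in glycine and proline.

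Promoters are shown where a member held the core of the amino acid response element, TGATGNAA, searched on both strands in the RefSeq windows (GRCm38.p6) from 250 bases before to 50 bases after a start. Windows were found for 45 of the 62 genes, among them 7 of the 10 that rose and 6 of the 13 that fell. The other genes were not searched. Of the 64 windows, 5 (7.81%) held the core. Over all genes 1304 of 32851 windows (3.97%) held it. By gene, the core was found in 4 of 45 (8.89%), against 1219 of 27025 (4.51%) over all genes. Overlapping windows of Slc7a7 count the same match again, so the shares of the transporter genes rest on few sites. Below are 1 window each of Slc7a7, which rose in BLM, of Slc1a4, which fell, and of Slc7a11, the cystine carrier known for such elements, which did not pass the test. Capitals mark TGATGNAA or its reverse complement, and each is written 5′ to 3′ in the direction of transcription.
Slc7a7, chr14:54417895-54418194, minus strand: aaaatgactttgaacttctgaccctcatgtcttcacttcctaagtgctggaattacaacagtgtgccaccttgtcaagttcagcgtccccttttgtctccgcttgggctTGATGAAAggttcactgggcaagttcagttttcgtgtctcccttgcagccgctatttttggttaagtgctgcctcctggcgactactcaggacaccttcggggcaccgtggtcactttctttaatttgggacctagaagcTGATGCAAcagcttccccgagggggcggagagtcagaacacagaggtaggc
Slc1a4, chr11:20332664-20332963, minus strand: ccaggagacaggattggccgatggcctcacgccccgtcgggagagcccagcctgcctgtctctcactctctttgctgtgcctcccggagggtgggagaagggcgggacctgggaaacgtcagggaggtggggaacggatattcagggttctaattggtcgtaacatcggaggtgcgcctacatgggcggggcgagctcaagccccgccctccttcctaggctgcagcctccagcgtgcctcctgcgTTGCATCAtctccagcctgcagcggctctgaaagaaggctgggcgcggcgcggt
Slc7a11, chr3:50443564-50443863, minus strand: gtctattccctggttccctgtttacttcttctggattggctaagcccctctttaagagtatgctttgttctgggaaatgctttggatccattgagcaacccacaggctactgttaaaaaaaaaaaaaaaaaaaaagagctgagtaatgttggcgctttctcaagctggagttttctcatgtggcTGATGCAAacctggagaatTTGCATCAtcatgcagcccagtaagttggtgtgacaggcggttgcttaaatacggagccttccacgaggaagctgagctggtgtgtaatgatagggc
The windows shown of Slc7a7 and Slc7a11 held 2 matches each and that of Slc1a4 held 1. Slc7a7 has further windows, some of them without a match. Among the genes searched, the remaining one with a match was Slc6a21, which did not pass. A match describes these letters only.

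Values are log2 expression values, differences are BLM minus PBS on that scale with the standard error (SE), and n = 2 arrays per group throughout. A gene is said to have risen or fallen only if its adjusted p in the limma fit over all 30142 genes was under 0.05. Of the 62 genes, 10 rose, 13 fell and 39 did not pass, so 37.1% were called, against a background of 25.3% of all genes tested. The background was 15.2% for genes higher in BLM and 10.1% for genes lower in BLM. Brighter genes were called more often on these arrays. At or above the median level of all genes (6.03), 20 of 36 transporter genes were called (55.6%), against 42.7% of all genes in that range. Below it, 3 of 26 were called (11.5%), against 7.96% of all genes. The list was not tested as a whole, so these shares are descriptions. The median difference was 0.08 over the 62 genes and 0.05 over all genes, and 2 rises and 3 falls reached 1 log2 unit, beside 5.14% of all genes that passed and reached it. BLM and PBS values did not overlap for 47 of the 62 genes, 30 with BLM above and 17 with BLM below, beside 63.3% of all genes.

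**Figure D1:**
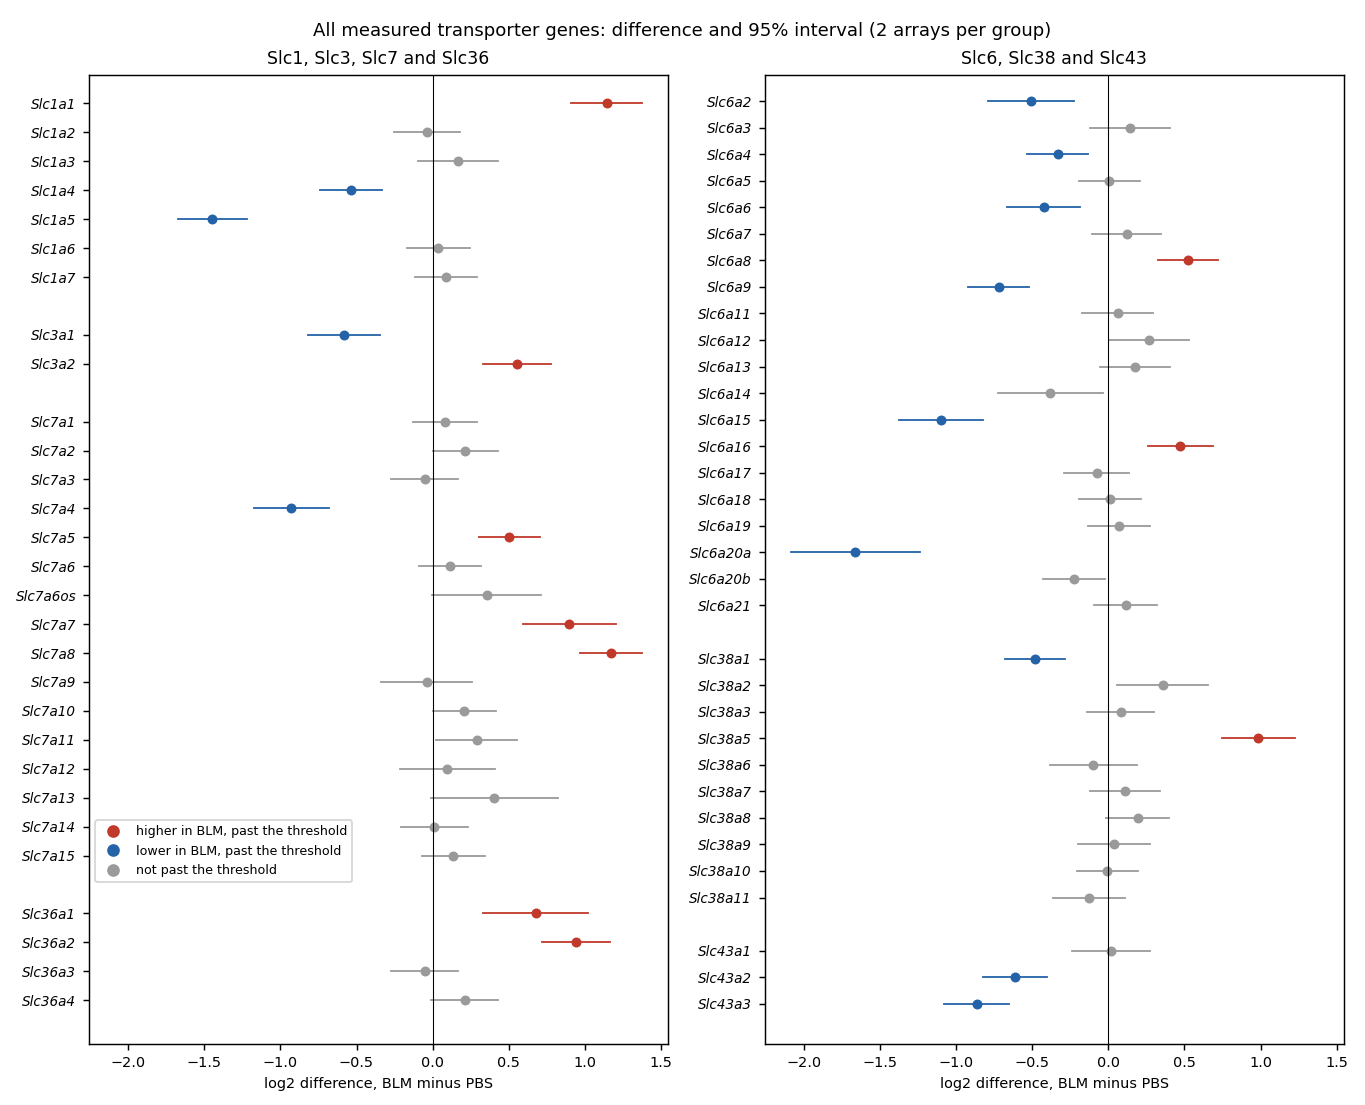
Log2 difference, BLM minus PBS, of each of the 62 genes by family (points), with its 95% interval (lines, 2 arrays per group). Red marks the 10 genes that rose, blue the 13 that fell and grey the 39 that did not pass, with Slc7a8 farthest right at 1.17 and Slc6a20a farthest left at -1.66.

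Facts of the whole series touch these values. Xist, the RNA of the inactive X chromosome of female cells, read 5.60 and 5.43 in BLM and 15.86 and 15.61 in PBS, and the Y-linked Kdm5d was higher in BLM by 2.14 (SE 0.13). The labels give no sex, and treatment cannot be told apart from this split of the arrays. In bulk RNA, fewer cells of a type and less RNA per cell also cannot be told apart. Markers of alveolar type 2 cells fell in 7 of 8 cases, with a mean log2 value over the list of 15.21 and 15.13 in BLM against 16.16 and 16.15 in PBS. Those of club and secretory cells fell in 5 of 6 cases and of ciliated cells in 5 of 5. Markers of fibroblasts rose in 6 of 7 cases and of macrophages in 9 of 12, with 2 falling. Endothelial markers rose in 3 of 7 cases, or 2 of 7 without any 1 array. Ptprc, the gene of CD45, was higher by 0.94 (SE 0.08), at 7.19 and 7.20 in BLM and 6.30 and 6.21 in PBS. The fraction therefore cannot be taken as free of leukocytes. The part of these markers in the results below was not tested.

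The heavy chain Slc3a2 rose together with 3 of its 6 light chains. Slc3a2 read 12.63 and 12.56 in BLM and 11.99 and 12.10 in PBS, a difference of 0.55 (SE 0.09, adjusted p = 0.00981). Slc7a8, a light chain that exchanges neutral amino acids, read 6.88 and 6.95 in BLM and 5.75 and 5.74 in PBS, higher by 1.17 (SE 0.08, adjusted p = 0.000902), or 2.25-fold. Both PBS values of Slc7a8 were dim, under that median level, and the size of its rise is therefore not exact. Slc7a7, which exchanges cationic for neutral amino acids and is known from macrophages and epithelia, read 8.29 and 8.44 in BLM and 7.34 and 7.60 in PBS, a rise of 0.90 (SE 0.12, adjusted p = 0.00568), or 1.86-fold. Of the 12 macrophage markers 9 rose and 2, Lyz2 and Mertk, fell. Their mean log2 value was 8.85 and 8.91 in BLM and 7.77 and 7.80 in PBS, and a link to Slc7a7 was not tested. Slc7a5, the leucine exchanger typical of growing cells, read 7.70 and 7.71 in BLM and 7.18 and 7.23 in PBS, a rise of 0.50 (SE 0.08, adjusted p = 0.00957). For all 4 of these genes both BLM values lay above both PBS values, as they did for 11452 of all 30142 genes tested. The calls of Slc7a8 and Slc7a7 held without each array in turn. That of Slc3a2 ended without BLM replicate 1 (adjusted p = 0.0651), and that of Slc7a5 without BLM replicate 1 or 2 (adjusted p up to 0.06).

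None of the other 3 light chains of Slc3a2 passed. Both BLM values of each lay above both PBS values, which was also so for 11452 of all 30142 genes tested. Slc7a11, which imports cystine for glutathione, read 5.37 and 5.60 in BLM and 5.18 and 5.21 in PBS, in the dim range below the median level. Its difference of 0.29 (95% interval 0.02 to 0.56) had an adjusted p of 0.11. Slc7a10, an exchanger of small neutral amino acids, stood at 0.21 (adjusted p = 0.133), and Slc7a6, a relative of Slc7a7, at 0.11 (95% interval -0.09 to 0.31). Whether these differences are smaller than those of Slc7a7 and Slc7a8 was not tested. Slc7a6os, which is not a carrier gene, stood at 0.35 and did not pass.

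The heavy chain Slc3a1, known from kidney and gut, fell, unlike Slc3a2. It read 5.31 and 5.46 in BLM and 5.93 and 6.00 in PBS, a difference of -0.58 (SE 0.09, adjusted p = 0.00982). All 4 values lie below the median level, so the size of the fall is not exact, and the call ended without BLM replicate 1 (adjusted p = 0.0622). Its known partners, Slc7a9 at -0.04 and Slc7a13 at 0.41, did not pass, and neither reached 4.6 on any array. Slc7a13 passed with the replicate number as a block (adjusted p = 0.0389).

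Among the 5 genes of the cationic branch of Slc7, which brings arginine, lysine and ornithine into cells, only Slc7a4 passed. Slc7a4, a member for which transport is not established, read 7.20 and 7.03 in BLM and 7.99 and 8.09 in PBS, a difference of -0.93 (SE 0.10, adjusted p = 0.00272), or 1.90-fold lower. The widely expressed arginine carrier Slc7a1 read 8.30 and 8.25 in BLM and 8.23 and 8.15 in PBS, a difference of 0.08 (95% interval -0.13 to 0.29). Slc7a2, the inducible arginine carrier of macrophages and liver, read 9.08 and 9.15 in BLM and 8.94 and 8.86 in PBS, at 0.21 (adjusted p = 0.132). The intervals of Slc7a1 and Slc7a2 reach no higher than 0.43. The neuronal Slc7a3, an X-linked gene, stood at -0.05 and Slc7a14 at 0.01. Slc7a12 (0.10) and Slc7a15 (0.14), outside this branch, did not pass either.

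The exchangers of small neutral amino acids in Slc1 both fell. Slc1a5, which exchanges glutamine for other neutral amino acids, read 10.83 and 10.87 in BLM and 12.23 and 12.37 in PBS, a difference of -1.45 (SE 0.09, adjusted p = 0.000649), or 2.73-fold lower. Its BLM values lay more than 1.3 log2 units under the lower PBS value, and the difference ran from -1.52 to -1.38 without each array in turn. Slc1a4, an exchanger of serine, alanine and cysteine, read 7.16 and 7.22 in BLM and 7.71 and 7.74 in PBS, at -0.54 (SE 0.08, adjusted p = 0.00807), a call that ended without BLM replicate 1 (adjusted p = 0.0593). Most markers of type 2, club and ciliated epithelium fell on the same arrays, as given above. Of 6 markers of alveolar type 1 epithelium, 1 rose and none fell. A link between these markers and the falls of Slc1a5 and Slc1a4 was not tested.

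The glutamate carriers of Slc1 did not follow the neutral exchangers. Slc1a1, which takes up glutamate, aspartate and cysteine, read 8.63 and 8.49 in BLM and 7.38 and 7.46 in PBS, a rise of 1.14 (SE 0.09, adjusted p = 0.00128), or 2.21-fold. This call held without each array in turn, with differences of 1.07 to 1.21. Slc1a3, a glial glutamate carrier also found outside the brain, stood at 0.17 (95% interval -0.10 to 0.43). The glial and neuronal carriers Slc1a2, Slc1a6 and Slc1a7 lay below 5.4 on every array, with differences of -0.04, 0.04 and 0.09.

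The sodium-coupled glutamine and alanine carriers of Slc38 went in different directions. Slc38a5, an X-linked carrier of glutamine, histidine and serine of the system N type, read 8.46 and 8.39 in BLM and 7.36 and 7.52 in PBS, a rise of 0.99 (SE 0.10, adjusted p = 0.00215), or 1.98-fold. Slc38a1, a system A carrier of glutamine and alanine, read 7.43 and 7.41 in BLM and 7.91 and 7.88 in PBS, a difference of -0.48 (SE 0.08, adjusted p = 0.0107). The rise of Slc38a5 held without each array in turn, whereas the fall of Slc38a1 ended without BLM replicate 1 or 2 (adjusted p up to 0.0678). Slc38a2, the system A carrier that cells induce when amino acids are short, read 11.14 and 11.04 in BLM and 10.59 and 10.87 in PBS, at 0.36 (95% interval 0.06 to 0.66, adjusted p = 0.0869). It passed without PBS replicate 2, the higher of its PBS values, at 0.49 (adjusted p = 0.0435), and among genes at or above the median level (adjusted p = 0.0422).

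The lysosomal carriers of this family showed no call. Slc38a9, the arginine sensor that signals to mTORC1, read 7.86 and 7.97 in BLM and 7.81 and 7.93 in PBS, a difference of 0.04 (95% interval -0.20 to 0.27). Slc38a7, which exports glutamine and asparagine from lysosomes, stood at 0.11 (95% interval -0.12 to 0.34). Slc38a3, the system N carrier of liver and kidney, read under 5 on every array, at 0.08. The less studied Slc38a6, Slc38a8, Slc38a10 and Slc38a11 had differences of -0.10, 0.19, -0.01 and -0.13, none past the threshold.

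Of the 4 genes of Slc36, 2 rose. Slc36a2, a carrier of proline and glycine, read 7.39 and 7.51 in BLM and 6.53 and 6.49 in PBS, higher by 0.94 (SE 0.09, adjusted p = 0.00196), or 1.92-fold, and held without each array in turn. Slc36a1, the lysosomal and gut carrier of small neutral amino acids, read 7.39 and 7.76 in BLM and 6.93 and 6.86 in PBS, at 0.68 (SE 0.14, adjusted p = 0.0208). The BLM arrays of Slc36a1 differed by more than its PBS arrays, and the call ended without BLM replicate 2, at 0.49, and without PBS replicate 1 or 2 (adjusted p up to 0.0777). Slc36a4, a carrier of proline and tryptophan with high affinity, read 9.85 and 9.98 in BLM and 9.73 and 9.68 in PBS, at 0.21 (95% interval -0.01 to 0.43). Slc36a3, a testis gene, read under 5 on every array, at -0.05.

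In Slc43, 2 of 3 genes fell. Slc43a3, which carries purine nucleobases rather than amino acids and is known from endothelium, read 15.43 and 15.42 in BLM and 16.24 and 16.34 in PBS, a difference of -0.86 (SE 0.08, adjusted p = 0.0022), or 1.82-fold lower. Of the 7 endothelial markers, 6 had a positive difference and 1, Tek, a negative one (-0.25), and none fell past the threshold. Their mean log2 value was 12.68 and 12.47 in BLM and 12.09 and 12.25 in PBS. A link between these markers and the fall of Slc43a3 was not tested. Slc43a2, a facilitated carrier of branched-chain amino acids, read 7.79 and 7.86 in BLM and 8.41 and 8.47 in PBS, at -0.61 (SE 0.08, adjusted p = 0.0057). Both calls held without each array in turn. Slc43a1, a carrier of the same substrates, did not pass, at 0.02 (95% interval -0.24 to 0.27).

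**Figure D2:**
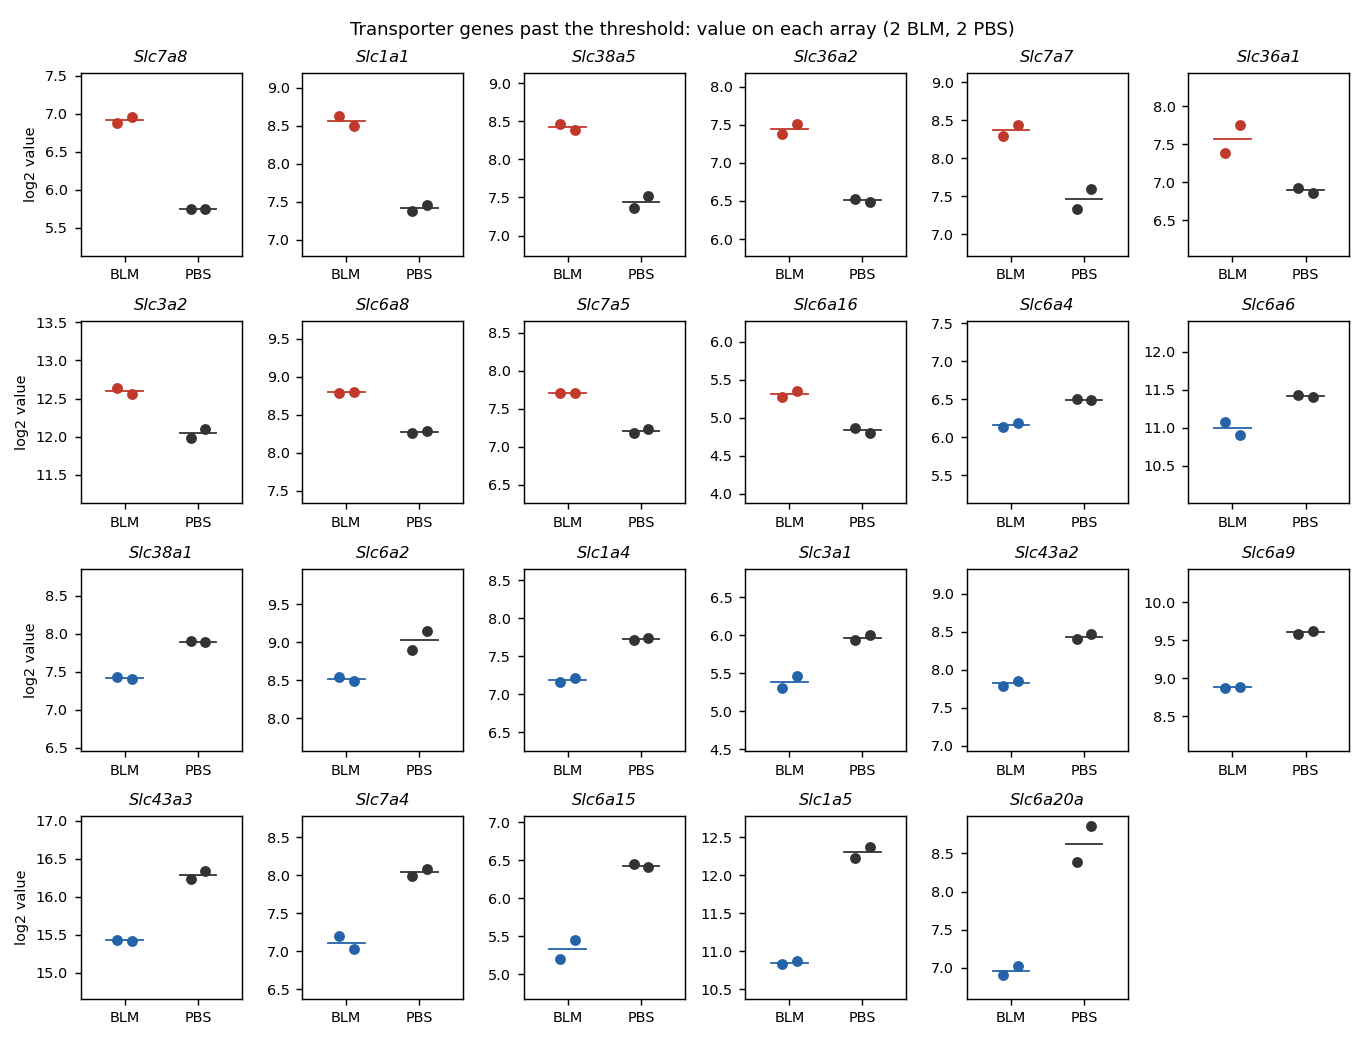
Log2 value on each array (points) and group mean (lines) of the 23 genes past the threshold, with BLM left of PBS. Panels run from the largest rise, Slc7a8, to the largest fall, Slc6a20a, and each spans the same range of log2 units. In all 23 the BLM and PBS values do not overlap, which picking genes by the test on these same arrays makes likely. Over all genes tested 63.3% did not overlap.

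Slc6 held the most members, 20, of which 6 fell and 2 rose. Its largest fall was that of Slc6a20a, a relative of the human imino acid carrier SLC6A20, at 6.90 and 7.02 in BLM and 8.39 and 8.86 in PBS. The difference of -1.66 (SE 0.17, adjusted p = 0.0024), or 3.16-fold, was -1.43 without PBS replicate 2 and -1.90 without PBS replicate 1. Its close paralogue Slc6a20b, at -0.22, passed only among genes at or above the median level (adjusted p = 0.0471), and whether probes read both genes was not tested. Slc6a15, a carrier of branched-chain amino acids and proline known from neurons, read 5.21 and 5.45 in BLM and 6.45 and 6.41 in PBS, at -1.10 (SE 0.11, adjusted p = 0.00227). The BLM values of Slc6a15 lay below the median level, so the size of this fall is not exact. Both falls held without each array in turn. Slc6a14, an X-linked carrier of neutral and cationic amino acids of airway and gut epithelium, read 9.91 and 10.12 in BLM and 10.25 and 10.55 in PBS, at -0.38 (95% interval -0.73 to -0.04, adjusted p = 0.106). It passed with the replicate number as a block (adjusted p = 0.0486) and with cyclic loess scaling over the genes tested, at -0.52 (adjusted p = 0.0441). The proline carrier Slc6a7, the vesicular Slc6a17 and the kidney and gut carriers Slc6a18 and Slc6a19 differed by 0.12, -0.08, 0.01 and 0.07 and did not pass.

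Slc6a9, a glycine carrier, read 8.87 and 8.89 in BLM and 9.59 and 9.62 in PBS, a fall with a difference of -0.72 (SE 0.08, adjusted p = 0.00303). The array holds a second cluster for this gene, at 5.98 and 5.78 in BLM and 6.27 and 5.69 in PBS, which disagreed with the first in that its groups overlapped. With the mean of both clusters the difference was -0.41 and the call ended (adjusted p = 0.0592). The neuronal glycine carrier Slc6a5 read under 4.6 on every array, at 0.01.

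Of the 3 carriers of monoamines, which lung endothelium is known to take up from blood, 2 fell by small amounts. Slc6a2, for noradrenaline, read 8.54 and 8.48 in BLM and 8.89 and 9.15 in PBS, at -0.51 (SE 0.11, adjusted p = 0.0264). Slc6a4, for serotonin, read 6.14 and 6.19 in BLM and 6.51 and 6.49 in PBS, at -0.33 (SE 0.08, adjusted p = 0.0348). The call of Slc6a2 ended without BLM replicate 1 or 2 or PBS replicate 2 (adjusted p up to 0.115), and that of Slc6a4 without any 1 array (up to 0.18) and with the replicate block. The dopamine carrier Slc6a3 did not pass, at 0.14.

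Carriers of other small molecules in Slc6 split. The creatine carrier Slc6a8, an X-linked gene, read 8.79 and 8.80 in BLM and 8.26 and 8.28 in PBS, a rise of 0.52 (SE 0.08, adjusted p = 0.00811) that ended without BLM replicate 1 or 2 (adjusted p up to 0.0547). The taurine carrier Slc6a6 read 11.08 and 10.91 in BLM and 11.43 and 11.41 in PBS, a difference of -0.43 (SE 0.09, adjusted p = 0.0272) that did not pass without any 1 array (adjusted p up to 0.142). The betaine and GABA carriers Slc6a12, Slc6a13 and Slc6a11 stood at 0.27, 0.18 and 0.06. Of the orphan carriers, Slc6a16 rose by 0.47 (SE 0.08, adjusted p = 0.0139) in the dim range, a call that ended without BLM replicate 1 or 2 or PBS replicate 2, and Slc6a21 stood at 0.11.

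**Figure D3:**
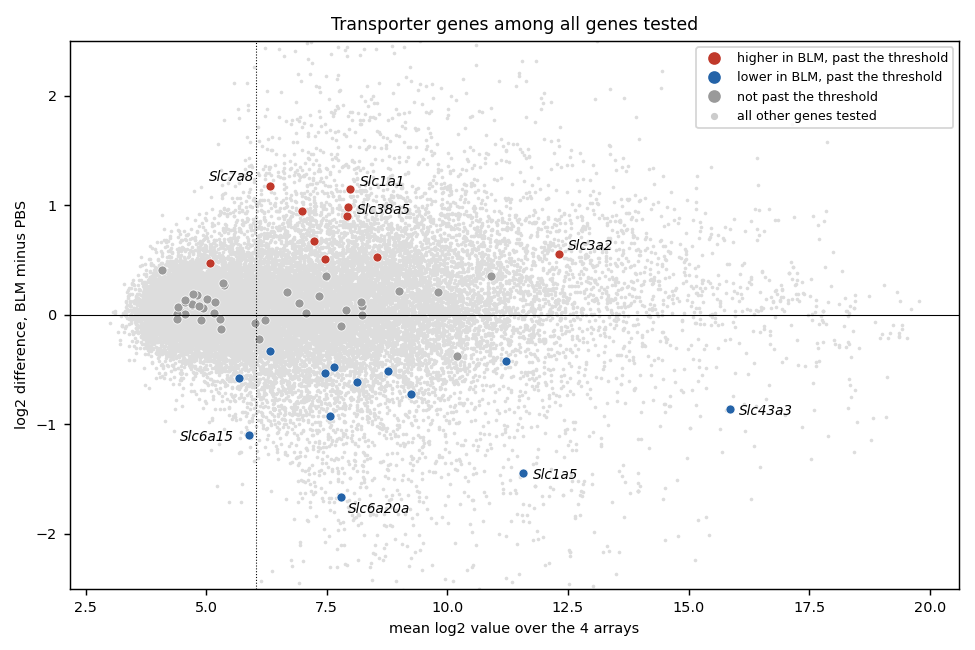
Mean log2 value over the 4 arrays (horizontal axis) and log2 difference, BLM minus PBS (vertical axis), of the 62 genes (large points) among all genes tested (light grey). The dotted line marks the median level of all genes, 6.03, left of which 3 of 26 transporter genes were called, and 101 genes beyond 2.5 in either direction are not drawn.

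The 12 lists of amino acid pathway genes around the carriers were read against the same background of 15.2% higher, 10.1% lower and a median of 0.05. Most of their genes were bright, such as 25 of 26 sensing genes and 17 of 17 synthetase genes, and at or above the median level 25.3% of all genes were higher in BLM and 17.4% lower. Near these lie the shares of lysosomal sensing, amino acid and stress response, carriers outside the 7 families, and partners and regulators. In either direction 42.7% of genes at that level were called, against 38.5% of those carriers and 43.8% of the partners and regulators. The amino acid and stress response list moved both ways: 6 of 22 genes rose and 4 fell, with a median of 0.16. Nupr1, a stress-induced chromatin protein gene, rose by 1.43 (SE 0.08), the stress transcription factor gene Ddit3 by 0.85 (SE 0.10), the translation repressor gene Eif4ebp1 by 0.79 (SE 0.12) and Asns, asparagine synthetase, by 0.70 (SE 0.08). Atf3, an early stress factor gene, fell, at -1.20 (SE 0.08). Atf4 itself read 9.88 and 10.17 in BLM and 9.93 and 9.77 in PBS, at 0.17 (95% interval -0.15 to 0.49), although ATF4 is known to be controlled largely at translation. Its target Trib3 stood at 0.25 (adjusted p = 0.0765). Without each array in turn, 4 or 5 genes of the list rose and 1 or 2 fell.

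Genes of cytosolic aminoacyl-tRNA synthetases, which load amino acids onto tRNA, rose in 7 of 17 cases with none falling, at a median of 0.18. The threonine enzyme gene Tars rose by 0.97 (SE 0.09), the glycine enzyme gene Gars by 0.85 (SE 0.11), the lysine enzyme gene Kars by 0.83 (SE 0.10) and Farsb, of the phenylalanine enzyme, by 0.71 (SE 0.11). Without each array in turn, 5 to 7 rose and none fell, and 1 fell with cyclic loess scaling over the genes tested. Of 13 genes of serine, glycine and folate metabolism, 5 rose and 2 fell (2 or 3 rose without an array). The mitochondrial glycine-making enzyme gene Shmt2 rose by 1.04 (SE 0.14) and the first enzyme of serine synthesis, Phgdh, by 0.58 (SE 0.08). Mthfd1, a folate enzyme gene, fell, at -1.22 (SE 0.10), as did its mitochondrial relative Mthfd1l, at -0.59 (SE 0.08), and Psat1 stood at 0.14. A further folate enzyme gene, Mthfd2, rose by 0.73 (SE 0.17), a call that ended without BLM replicate 1 or 2. Among 6 genes of proline metabolism, Aldh18a1, which makes the precursor of proline, rose by 0.88 (SE 0.08), and Prodh, which breaks proline down, fell, at -0.88 (SE 0.12). Oat also fell, at -0.42, a call that ended without any 1 array.

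Genes of cystine use and glutathione showed 5 falls and no rise among 14, with a median of -0.27. Gclc, the rate-limiting enzyme of glutathione synthesis, read 11.01 and 11.16 in BLM and 13.93 and 13.70 in PBS, at -2.73 (SE 0.12, adjusted p = 0.000355). Ggt5 (-0.98), Txnrd1 (-0.80), Cth (-0.79) and Gsr (-0.65) also fell, and 4 or 5 falls remained without each array in turn. Arginine and polyamine genes rose in 6 of 15 cases and fell in 2 (1 without BLM replicate 1 or 2 or PBS replicate 2, and 4 with cyclic loess scaling over the genes tested), among them Nos2 at 1.35 (SE 0.09), Gatm at 1.27 (SE 0.09), Arg1 at 1.19 (SE 0.12) and Ddah1 at 1.11 (SE 0.12). The mitochondrial arginase gene Arg2 fell, at -0.59 (SE 0.08). Arg1 and Nos2, both of which consume arginine, are known from activated macrophages. Of the 12 general macrophage markers 9 rose and 2 fell, and a link to Arg1 and Nos2 was not tested. Of 9 glutamine, glutamate and aspartate genes, 3 rose and 2 fell (2 or 3 and 1 without an array), including Gpt at -1.15 (SE 0.09) and Got2 at 0.81 (SE 0.11).

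The remaining lists moved both ways. Amino acid sensing genes of the lysosome rose in 8 of 26 cases and fell in 5, with Sesn3 at 1.05 (SE 0.10), Rraga at 1.01 (lost without BLM replicate 1, adjusted p = 0.0602), Lamtor5 at 0.94 (SE 0.09) and Rragd at -0.74 (SE 0.08), but without BLM replicate 1 they rose in 3 cases and fell in 1. Branched-chain amino acid breakdown genes rose in 4 of 11 cases and fell in 4, with Ivd at -1.15 (SE 0.08) and Bckdhb at 0.84 (SE 0.12), but in 1 each without either BLM array. Of 13 genes of tryptophan and serotonin breakdown, 2 rose and 3 fell, with Maob at -1.65 (SE 0.08) and Kynu at 0.65 (SE 0.08). Without BLM replicate 1, PBS replicate 1 or PBS replicate 2 only 1 rose, and without either BLM array only 1 fell. Carriers outside the 7 families rose in 5 of 26 cases and fell in 5 (3 or 4 and 1 to 4 without an array). The peptide carrier Slc15a1 fell, at -1.88 (SE 0.08). The lysosomal peptide carrier of immune cells, Slc15a3, rose by 1.80 (SE 0.12), and a link to the macrophage markers was not tested. Of 16 partners and regulators, 5 rose and 2 fell, among them Cd44 at 1.13 (SE 0.09), Myc at 0.83 (SE 0.10) and the ubiquitin ligase gene Nedd4l at -1.02 (SE 0.08). Without BLM replicate 2, 3 of them rose and 1 fell.

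**Figure D4:**
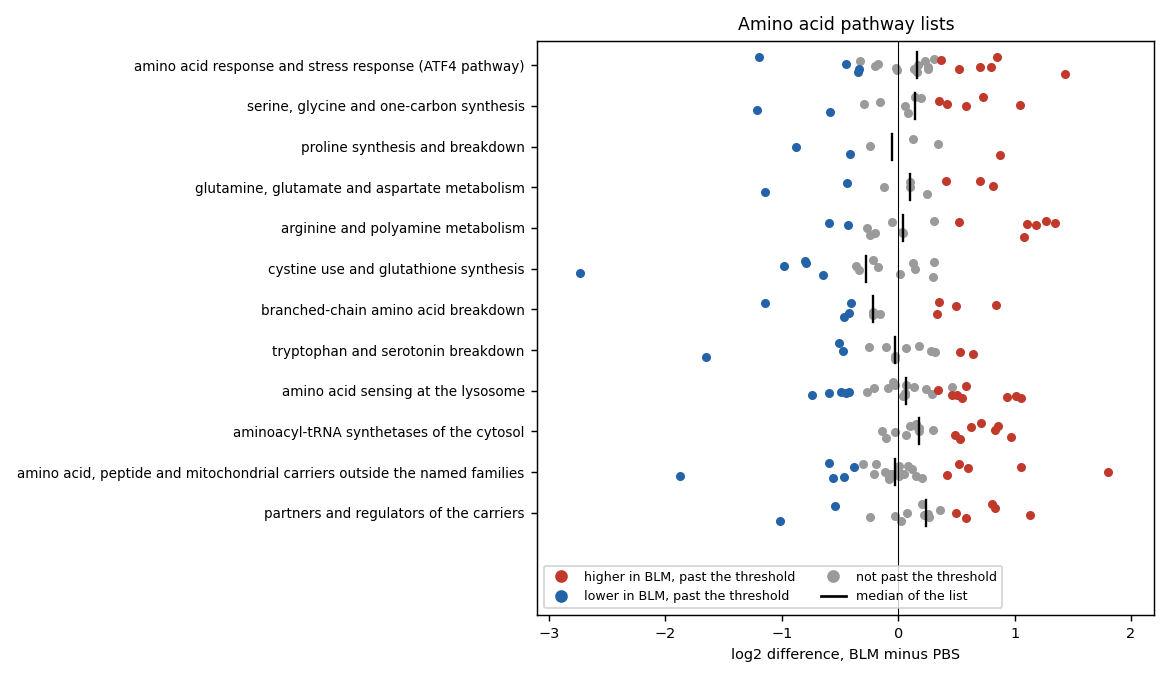
Log2 difference, BLM minus PBS (horizontal axis), of each measured gene (points) in the 12 pathway lists, with the median of each list as a black bar. Red points rose, blue points fell and grey points did not pass, with Gclc farthest left at -2.73 and no red point in the list of cystine use and glutathione synthesis.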

How the data were processed

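Each value in the deposited table is a log2 expression level of a transcript cluster. The submitters' processing notes name RMA and Affymetrix Expression Console as the authors' method. Software versions, the build behind the array and scaling after RMA were not given in the sources. Mean levels reached 19.8, above the usual range of RMA values, so the scale is not settled and printed folds assume plain log2 values. Differences of dim genes are compressed by such processing, and the number of arrays limits the precision. The labels do not say whether the 2 arrays of each group stand for different mice. The p-values therefore reflect only how these arrays spread, which may be technical.

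Of 65956 clusters, those with exactly 1 symbol in the platform annotation were used (827 symbols updated through Entrez identifiers against RefSeq), and the cluster with the highest mean was kept per gene, which left 30142 genes. No transporter gene shared identical values with another gene. The test was that of limma 3.58.1, run in R 4.3.3 (lmFit, eBayes with the default prior, two-sided, Benjamini-Hochberg over all genes, threshold 0.05), a fit with 2 residual and 3.33 prior degrees of freedom that was tested on simulated data. The median SE was 0.0969. Lists were described by counts and medians, without a test.

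Members and lists were chosen with earlier results of these data known, and roles were grouped after values were seen. Values on each array are given for called members differing by at least 0.5, for the member with the highest mean of each family and for a fixed panel, and up to 4 genes with the largest called difference are named per pathway list, beside a fixed panel. Alternatives were the replicate block, leaving out each array, only genes at or above the median level, averaging the clusters of each gene, another prior, 2 scalings, leaving out X and Y genes and, added after seeing the data, cyclic loess over the genes tested. Some genes of the fixed panel are not reported here. Arrays of the same number did not deviate together (correlation 0.014 across genes), so the numbers were not taken as pairs.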

Additional observations from a re-analysis of the deposited data

How the results depend on the processing

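No transporter gene that passed in any of the 12 alternative settings changed direction there. Without each array in turn, the transporter genes called were 13 to 20 (6 to 9 higher, 7 to 11 lower), against 23 (10 higher, 13 lower) with all arrays, and the genes called over the whole table were 4003 to 5956 (2333 to 3521 higher, 1670 to 2435 lower), against 7629 (4582 higher, 3047 lower). The lowest counts came without BLM replicate 1. Without either BLM array the spread is estimated from the PBS pair alone. The rises of Slc7a8, Slc7a7, Slc1a1, Slc38a5 and Slc36a2 and the falls of Slc1a5, Slc6a20a, Slc6a15, Slc7a4, Slc43a3, Slc43a2 and Slc6a9 held without each array in turn, that of Slc6a9 not with the mean of its clusters. With the replicate block 24 transporter genes were called, gaining Slc6a14 and Slc7a13 and losing Slc6a4, and 6742 genes over the whole table. Cyclic loess scaling over the genes tested, added after seeing the data, called 24 (10 higher, 14 lower), all 23 among them and Slc6a14 at -0.52 (adjusted p = 0.0441), and lowered the share of calls over the whole table that were higher in BLM to 49.3%, against 60.1%. The other settings called 21 to 23 transporter genes, the 21 with the genes of X and Y left out being those not on X. With all genes, arrays and the scaling as deposited, the smallest difference called was 0.29 on the log2 scale.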

Other observations

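Besides the clusters used, 4 clusters name a gene of these families and stayed out of the comparison, the second cluster of Slc6a9 and clusters shared between Slc1a2 and Gm13872 and by the antisense transcripts Slc36a1os and Slc6a19os. In a fit over all 65956 clusters none of the 4 passed, with differences of -0.13 to 0.17 and adjusted p of 0.458 to 0.813. At an unadjusted p under 0.05, 30 of the 62 transporter genes lay past the threshold, beside 37.4% of all genes.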
